A study of Mus musculus with 5 samples.

Results

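The genes described here encode the proteins of the mitochondrial ribosome and of the translocases that carry proteins into mitochondria. They were selected on their symbols, as every row of the expression table whose only gene symbol starts with Mrps, Mrpl, Timm or Tomm followed by a digit. No expression value enters that rule, but the family was picked for description with earlier results of these same arrays known. The differences between groups below therefore describe the family and are not independent evidence about it. The rule found 112 of the 34760 rows, which stand for 101 genes. Of these genes, 29 belong by symbol to the small ribosomal subunit, 48 to the large subunit, 10 to outer membrane import, 6 to the small chaperones of the space between the membranes and 8 to inner membrane import. Symbols and places differ for a few: Mrps18a and Mrps30 sit in the large subunit, and Mrps36 belongs to the oxoglutarate dehydrogenase complex.

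Mitochondria keep their own ribosomes, which translate the few respiratory chain subunits encoded in mitochondrial DNA. All protein components of these ribosomes are encoded in the nucleus, made in the cytosol and imported. Import starts at the TOM complex of the outer membrane. Presequence-bearing proteins then pass through the TIM23 complex of the inner membrane, and carrier proteins are guided by small TIM chaperones to the TIM22 complex. In the lung, the surfactant-making alveolar type II cells are known to be rich in mitochondria.

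The cells were MLE-15, a mouse lung epithelial line that arose in tumours of transgenic mice expressing SV40 large T antigen from the human surfactant protein C promoter. All cultures received a GFP-marked lentivirus (16 h of exposure, multiplicity 50, polybrene at 5 µg/ml) and were then selected in puromycin at 5 µg/ml over 6 days. The 3 knockdown cultures carried an shRNA against Grhl2, a Grainyhead-like transcription factor gene of epithelia, and the 2 control cultures carried a non-silencing shRNA. Each is labelled an independent transduction of the same line, a single Grhl2 hairpin is named, and RNA of each culture was measured on its own array. In bulk RNA, a change in the mix of cells and a change per cell cannot be told apart.

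All 5 arrays had a median log2 signal of 5.29 to 5.32. Grhl2 had log2 values of 7.43, 7.43 and 7.60 on the shRNA arrays and 7.77 and 7.68 on the control arrays, a log2 fold change of −0.24 that missed the threshold (SE 0.065, limma adjusted p = 0.082). The threshold here and below is a limma adjusted p under 0.05 over all 14979 genes tested, and every difference is the mean log2 value of the shRNA arrays minus that of the control arrays. Of 8 lung epithelial markers, 8 passed the filter on low signal and 0 passed the threshold. The markers at the bright end included Krt18, Krt8, Sftpb and Cdh1, while Sftpc and Cldn18 had low means of 6.73 and 4.48 on the shRNA arrays and 6.98 and 4.5002 on the control arrays. Of 14 fibroblast, endothelial and immune markers, 9 passed the filter, and among those only Dcn, a fibroblast proteoglycan gene, passed the threshold, with a log2 fold change of 0.70. Log2 values of the 4 fibroblast markers summed to 24.41 to 24.90 on the shRNA arrays and 24.10 to 24.20 on the control arrays. This sum of log2 values is not a total signal, and its part in the results below was not tested. Dcn alone was higher, and Col1a1, Col3a1 and Pdgfra were at −0.01, −0.07 and −0.07, none of them past the threshold.

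The promoters of 4 genes are shown because these genes had the largest difference of their role group (Mrps6, Timm10, Tomm70a) or carry a motif discussed below (Mrps18b). Each sequence is the 250 bases before the transcription start, on the gene's strand, from RefSeq promoters of GRCm38.p6. Capitals mark matches to a binding motif of NRF1 (core GCATGCGC), of ETS factors such as GABP (CCGGAAG) or of YY1 (AAGATGGCG), searched on both strands. NRF1, GABP and YY1 are regulators known for their binding sites in nuclear genes of mitochondria. The windows are Mrps6 at chr16:92058086-92058335 on the plus strand, Mrps18b at chr17:35916441-35916690 on the minus strand, Timm10 at chr2:84826771-84827020 on the plus strand and Tomm70a at chr16:57121464-57121713 on the plus strand.
Mrps6: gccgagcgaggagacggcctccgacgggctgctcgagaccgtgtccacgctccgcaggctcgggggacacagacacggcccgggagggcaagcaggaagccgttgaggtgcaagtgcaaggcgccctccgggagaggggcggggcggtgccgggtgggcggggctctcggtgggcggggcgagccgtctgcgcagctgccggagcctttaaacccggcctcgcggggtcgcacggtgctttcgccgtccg
Mrps18b: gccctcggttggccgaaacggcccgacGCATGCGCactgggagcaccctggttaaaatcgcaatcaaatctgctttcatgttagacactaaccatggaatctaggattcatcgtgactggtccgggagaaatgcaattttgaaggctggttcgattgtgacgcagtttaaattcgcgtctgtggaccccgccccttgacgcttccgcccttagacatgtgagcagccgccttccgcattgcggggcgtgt
Timm10: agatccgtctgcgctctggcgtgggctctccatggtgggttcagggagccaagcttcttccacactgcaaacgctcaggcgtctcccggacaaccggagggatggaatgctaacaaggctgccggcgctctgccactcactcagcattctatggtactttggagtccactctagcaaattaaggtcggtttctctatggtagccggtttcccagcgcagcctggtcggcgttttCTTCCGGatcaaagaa
Tomm70a: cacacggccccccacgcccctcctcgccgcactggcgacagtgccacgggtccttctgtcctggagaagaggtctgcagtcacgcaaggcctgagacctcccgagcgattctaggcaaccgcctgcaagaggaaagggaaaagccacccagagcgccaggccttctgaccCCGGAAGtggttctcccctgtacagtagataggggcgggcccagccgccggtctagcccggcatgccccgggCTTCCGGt
The Mrps6 window held none of the motifs. Mrps18b had an NRF1 core from 223 to 216 bases before the start. Timm10 had an ETS match in reverse (CTTCCGG) from 16 to 10 bases before the start. Tomm70a had 2 ETS matches, from 80 to 74 and, in reverse, from 8 to 2 bases before the start. No matches overlapped in these windows.

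Across the family, 88 of the 100 genes tested had a promoter in the RefSeq table. An ETS match was present in 24 of the 88 genes (27.3%), against 10.2% of 17491 protein-coding genes in the table. The NRF1 core was present in 9 of the 88 (10.2%), against 3.32%, and the YY1 motif in 2 (2.27%), against 0.84%. The longer NRF1 palindrome, which contains the core, was present in 3 genes (3.41%), against 1.21%. Of all 32851 windows in the table, which count every listed start, 6.91% held an ETS match, 2.26% the NRF1 core and 0.606% the YY1 motif. None of the 3 motifs was found for 55 of the 88 genes, and 2 genes, Mrpl17 and Mrpl22, held 2 of them. The median log2 fold change was 0.102 in genes with an ETS match and 0.0777 in those without. For the NRF1 core it was −0.0106 with and 0.0896 without, and for YY1 −0.101 with and 0.0913 without. These medians are a description with no test. Of the 7 genes in the table that passed the threshold below, 2 had an ETS match and 1 the NRF1 core. A match is a run of letters and does not show that a factor binds there.

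Of the 101 genes, 100 had a signal above the filter. The exception was Timm8a2, a paralog of Timm8a1, with log2 values of 2.95, 3.25 and 3.08 on the shRNA arrays and 2.99 and 2.97 on the control arrays. Of the 100 genes tested, 9 rose, none fell in limma and 91 missed the threshold. The 9 are 9% of the genes tested, where 2.86% of all genes tested were called higher and 3.52% lower. With limma at an unadjusted p under 0.05, 30 of the 100 were higher and 4 lower, against 11.3% and 11.8% of all genes tested. All 3 shRNA arrays lay above both control arrays in 51 of the 100 genes, against 21.0% of all genes tested, and below both in 6, against 20.5%. Of the 100 differences, 79 were above 0 and 21 below. The median log2 fold change was 0.087, with quartiles of 0.024 and 0.13, and the median over all genes tested was 0.002, with quartiles of −0.07 and 0.07.

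With 3 against 2 arrays, most calls did not hold in every fit that left out an array. Of the 9 genes that rose, only Mrps6 was called in all 5 fits that left out an array. Without shRNA replicate 1 or 2, or without control replicate 1 or 2, it was the only gene of the family called. Without shRNA replicate 3, 6 genes were called, of which 5 were among the 9. The share of all genes tested called higher also fell. It was 2.86% with all arrays and 1.32%, 0.848% and 1.36% without shRNA replicate 1, 2 and 3. With no filter on low signal, only Mrps6, Mrpl47 and Timm8a1 of the family were called, and with cyclic loess normalization Mrps18b was lost from the 9. In these settings 0.888% and 2.92% of all genes tested were called higher. The family's median moved less, from 0.070 to 0.097 over the 5 fits that left out an array.

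**Figure D1:**
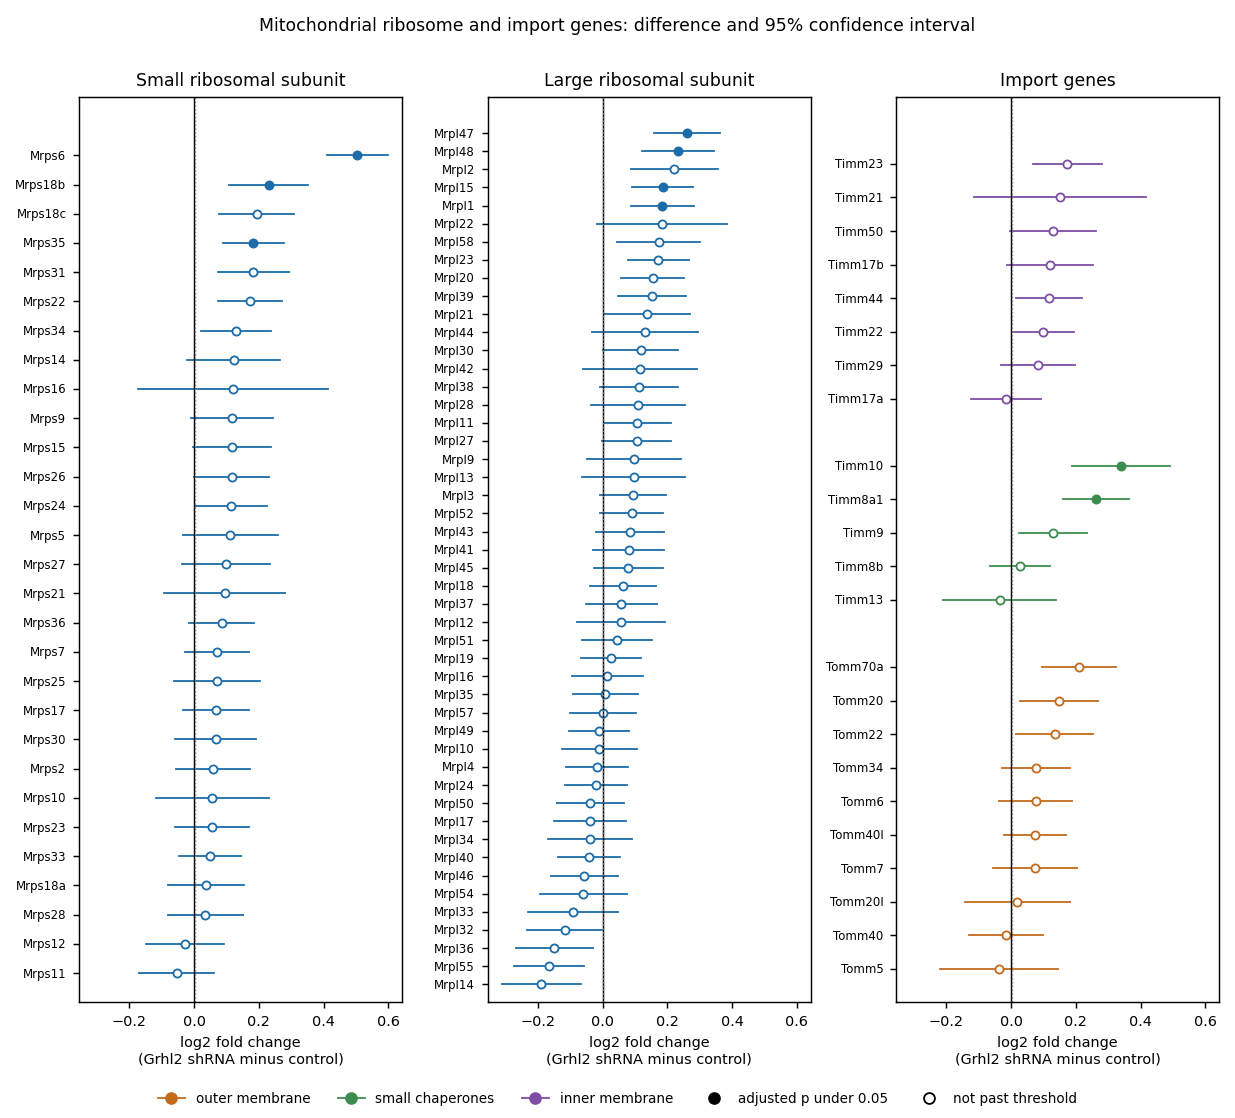
Log2 fold change (Grhl2 shRNA minus control, horizontal axis) of the 100 genes tested, by role, with 95% confidence intervals from limma; filled points passed the adjusted p threshold, open points did not, and the dotted line is the median of all genes tested. All 9 filled points lie to the right of 0, Mrps6 farthest at 0.50; the lowest open points are Mrpl14, Mrpl55 and Mrpl36 of the large subunit.

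The differences were small for single genes. Among the 9 genes that rose, the log2 fold change ran from 0.18 to 0.50, and the largest corresponds to a 1.42-fold difference. The family's probe sets are brighter than most, with a median over genes of the mean log2 value of 8.90 against 7.46 for all genes tested. For the 3045 other genes whose mean lay between the family's quartiles of 8.24 and 9.44, the median log2 fold change was 0.005 and 3.94% were called higher.

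The 3 shRNA arrays did not contribute alike. The median deviation of the 100 genes from their control mean was 0.10 on shRNA array 1, 0.077 on array 2 and 0.063 on array 3. The same median over all genes tested lay between −0.006 and 0.006 on the 3 arrays. On the control arrays the family's median deviations were 0.003 and −0.003, which are opposite by construction with 2 arrays. Among the role groups, inner membrane genes ran from 0.15 on array 1 to 0.064 on array 3, and small subunit genes from 0.14 on array 1 to 0.069 on array 2. On arrays 1, 2 and 3 large subunit genes were at 0.088, 0.058 and 0.046. Outer membrane genes were at 0.088, 0.090 and 0.048, and small chaperones at 0.13, 0.11 and 0.15. The order of the arrays was thus not shared by all role groups.

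**Figure D2:**
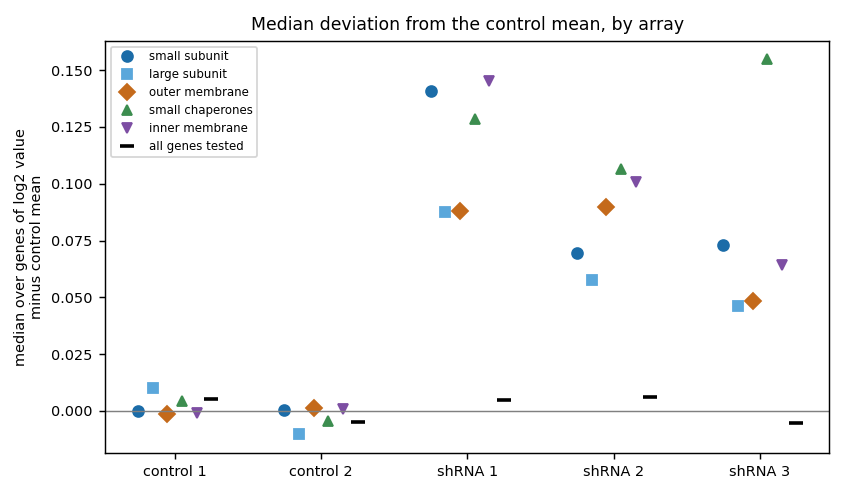
Median over genes of the log2 value minus each gene's control mean (vertical axis) on each of the 5 arrays, for the 5 role groups and for all genes tested. Every role group is above 0 on all 3 shRNA arrays, from 0.05 for the large subunit on array 3 to 0.15 for the small chaperones on array 3, while all genes tested stay near 0.

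Among small subunit genes, 3 of 29 rose and 26 missed the threshold, with 9 higher and 0 lower at an unadjusted p under 0.05 in limma. Of all genes tested, 2.86% were called higher and 3.52% lower, and unadjusted 11.3% were higher and 11.8% lower. The differences were above 0 in 27 of the 29 genes, with a median of 0.099. Mrps6, which encodes the mitochondrial counterpart of bacterial ribosomal protein S6, had the largest difference of the whole family. Its log2 values were 9.86, 9.89 and 9.89 on the shRNA arrays and 9.37 and 9.38 on the control arrays. Its shRNA values lay close together and far above both controls. The means were 9.88 ± 0.016 (SD, n = 3) and 9.38 ± 0.009 (SD, n = 2), and the log2 fold change was 0.50 (SE 0.040, limma adjusted p = 0.0037). With any 1 array left out Mrps6 was still called, with a limma adjusted p of 0.013 to 0.038. It missed the threshold when all 34760 probe sets were tested together (limma adjusted p = 0.101).

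In RefSeq, Mrps6 overlaps Slc5a3, which encodes a sodium-coupled inositol transporter. Slc5a3 has its own probe set, with values of 9.04, 9.14 and 9.23 on the shRNA arrays and 8.72 and 8.70 on the control arrays. It also rose, by 0.42 (SE 0.060, limma adjusted p = 0.014). Signal from one gene in the other's probe set was not tested. Among the other 8 genes that rose, Mrps18b overlaps a long noncoding RNA gene and Mrpl48 overlaps a pseudogene and Rab6a, which had a log2 fold change of 0.043 (limma adjusted p = 0.61).

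Mrps18b is one of the mammalian relatives of bacterial S18. Its log2 values were 10.00, 9.99 and 9.88 on the shRNA arrays and 9.74 and 9.71 on the control arrays, so shRNA array 3 lay closest to the controls without overlapping them. It rose by 0.23 (SE 0.052, limma adjusted p = 0.048). Its relative Mrps18c had a log2 fold change of 0.19 (SE 0.049, limma adjusted p = 0.066), with no overlap between groups. The third relative, Mrps18a, sits in the large subunit in mammals despite its name and had a log2 fold change of 0.036 (limma adjusted p = 0.72). Mrps35, a component that bacteria lack, had values of 8.66, 8.67 and 8.63 against 8.47 and 8.47, and rose by 0.18 (SE 0.040, limma adjusted p = 0.045). The lowest differences of the role group were those of Mrps11 and Mrps12, at −0.05 and −0.03. Their shRNA and control arrays overlapped, and these 2 genes and Mrps18a were named after their values were seen.

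Among large subunit genes, 4 of 48 rose and 44 missed the threshold, with 12 higher and 4 lower at an unadjusted p under 0.05 in limma. Of all genes tested, 2.86% were called higher and 3.52% lower, and unadjusted 11.3% were higher and 11.8% lower. Of the 48 large subunit differences, 33 were above 0 and 15 below, with a median of 0.081. Their quartiles were −0.019 and 0.12, where those of the small subunit were 0.059 and 0.12. Mrpl47, the counterpart of bacterial L29, had log2 values of 7.12, 7.06 and 7.05 on the shRNA arrays and 6.82 and 6.82 on the control arrays. It rose by 0.26 (SE 0.043, limma adjusted p = 0.021). A second, dimmer probe set for Mrpl47 had a difference of 0.03 with overlapping groups. With the mean of both probe sets, the log2 fold change of Mrpl47 was 0.14 and missed the threshold (limma adjusted p = 0.13).

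Mrpl48 had log2 values of 9.43, 9.36 and 9.37 against 9.20 and 9.11 and rose by 0.23 (SE 0.047, limma adjusted p = 0.037). RefSeq also holds a pseudogene of Mrpl48, so its signal may be shared and the value is uncertain. Mrpl15, the counterpart of bacterial L15, had values of 8.71, 8.68 and 8.66 against 8.5035 and 8.495 and rose by 0.19 (SE 0.040, limma adjusted p = 0.044). Mrpl1, a protein of the ribosomal stalk that releases spent tRNA, had values of 8.46, 8.49 and 8.51 against 8.32 and 8.28 and rose by 0.18 (SE 0.042, limma adjusted p = 0.049). In all 4 genes every shRNA array lay above both controls, as in 21.0% of all genes tested. The 4 were called on these same arrays, so this is no further support. Mrpl2, a core protein near the catalytic centre, had a log2 fold change of 0.22 but a wider spread between shRNA arrays (8.88, 8.82 and 8.71), and missed the threshold (limma adjusted p = 0.069).

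The large subunit was the only role group with genes whose shRNA arrays all lay below both controls. It had 6 of 48, a smaller share than the 20.5% of all genes tested, and none of the 6 passed the threshold. These were Mrpl14, Mrpl32, Mrpl36, Mrpl40, Mrpl46 and Mrpl55, named after their values were seen. The lowest was Mrpl14, with 9.27, 9.32 and 9.35 on the shRNA arrays and 9.45 and 9.56 on the control arrays, a log2 fold change of −0.19 (SE 0.051, limma adjusted p = 0.078). Mrpl55 was at −0.17 (limma adjusted p = 0.081) and Mrpl36 at −0.15 (limma adjusted p = 0.13).

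**Figure D3:**
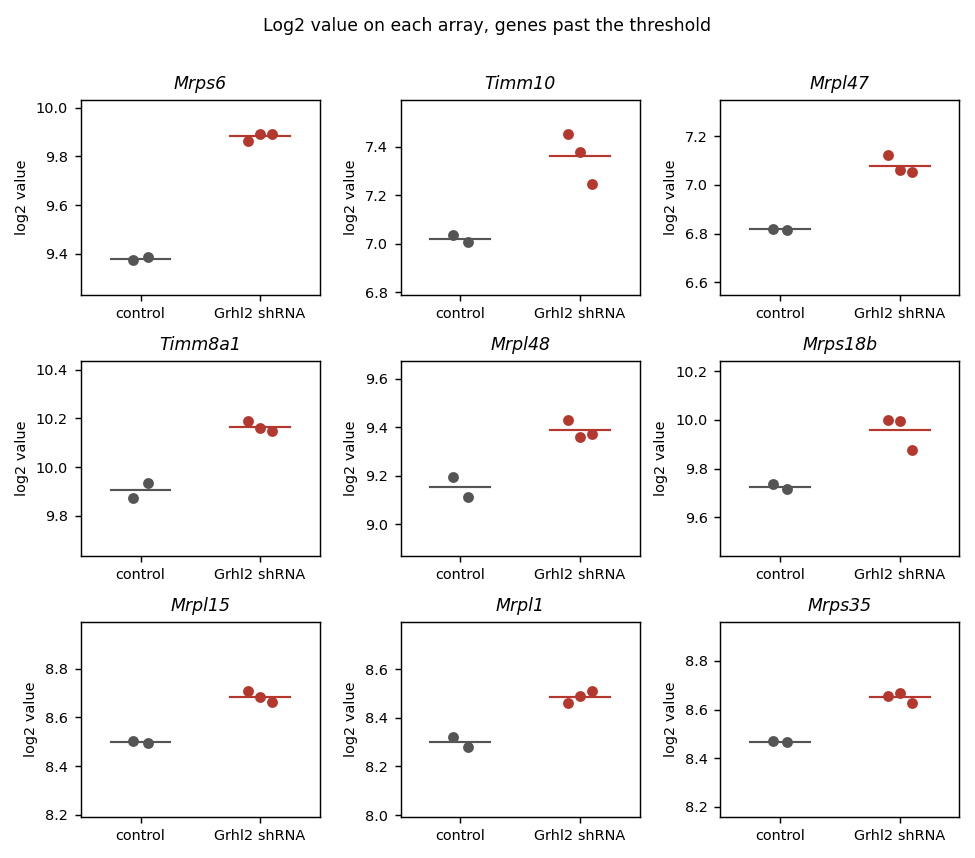
Log2 value on each array (vertical axis, each panel spanning 0.8 log2 units around the gene's own midpoint) of the 9 genes that passed the threshold, with group means as lines. In every panel the 3 shRNA points lie above the 2 control points, as in 21.0% of all genes tested, and the gap is widest for Mrps6. The genes were picked by the test on these same arrays, so the separation is no further support.

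Among outer membrane import genes, 0 of 10 passed the threshold in limma, with 3 higher and 0 lower at an unadjusted p under 0.05. In a group this small, 0 calls is near the 2.86% higher and 3.52% lower of all genes tested. Nothing is read from it. Unadjusted, 11.3% of all genes tested were higher and 11.8% lower. The differences were above 0 in 8 of the 10, with a median of 0.075. The 3 receptors had the largest differences. Tomm70a, the receptor for carrier proteins delivered by cytosolic chaperones, had log2 values of 9.70, 9.61 and 9.59 on the shRNA arrays and 9.42 and 9.43 on the control arrays. Its log2 fold change of 0.21 (SE 0.048) lay just outside the threshold, with a limma adjusted p of 0.051. Tomm20, the presequence receptor, was at 0.15 (limma adjusted p = 0.14), and Tomm22, the receptor that links the others to the channel, at 0.13 (limma adjusted p = 0.17). For all 3 receptors every shRNA array lay above both controls. This held for 5 of the 10 outer membrane genes and for 21.0% of all genes tested.

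The channel protein Tomm40 had a log2 fold change of −0.02 (95% confidence interval −0.13 to 0.10), with overlapping groups. The small channel subunits Tomm5, Tomm6 and Tomm7 were at −0.04, 0.08 and 0.07, also with overlap. Tomm34, a cytosolic co-chaperone of import, and Tomm40l, a paralog of the channel, were at 0.08 and 0.07 with limma adjusted p of 0.37 and 0.33. In each of them, as in the receptors, every shRNA array lay above both controls. Tomm20l, a paralog of Tomm20, was at 0.02.

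Of the 5 small chaperones tested, 2 rose and 3 did not pass. Of all genes tested, 2.86% were called higher and 3.52% lower. With only 5 genes, nothing is read from this count about the group. Timm10, which forms a ring-shaped chaperone with Timm9, had log2 values of 7.45, 7.38 and 7.25 on the shRNA arrays and 7.04 and 7.01 on the control arrays. Its shRNA arrays were spread more widely than the controls but did not reach them. It rose by 0.34 (SE 0.064, limma adjusted p = 0.031). Its partner Timm9 had values of 8.30, 8.28 and 8.33 against 8.13 and 8.21, a log2 fold change of 0.13 that did not pass (limma adjusted p = 0.14).

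Timm8a1, whose human counterpart is mutated in a deafness and dystonia syndrome, had values of 10.19, 10.16 and 10.15 against 9.87 and 9.94. It rose by 0.26 (SE 0.043, limma adjusted p = 0.021). Its second probe set had 7.38, 7.37 and 7.23 against 6.98 and 6.99, a difference of 0.34 in the same direction. Timm13, with which Timm8a1 forms a chaperone complex, was at −0.03 (95% confidence interval −0.21 to 0.14) with overlapping groups. Timm8b was at 0.03 (limma adjusted p = 0.73).

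Among inner membrane import genes, 0 of 8 passed the threshold in limma, with 3 higher and 0 lower at an unadjusted p under 0.05. In a group this small, 0 calls is near the 2.86% higher and 3.52% lower of all genes tested. Nothing is read from it. Unadjusted, 11.3% of all genes tested were higher and 11.8% lower. The differences were above 0 in 7 of the 8, with a median of 0.12. Timm23, the channel-forming subunit for presequence proteins, had log2 values of 10.29, 10.21 and 10.21 against 10.07 and 10.05, with no overlap. Its log2 fold change was 0.17 (SE 0.045, limma adjusted p = 0.072). Timm50, the receptor that hands proteins to the channel, was at 0.13 (limma adjusted p = 0.23).

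Timm21, which connects the channel to the outer membrane, was at 0.15 but had overlapping groups and shRNA values from 10.26 to 10.67 (limma adjusted p = 0.48). Timm44, the anchor of the import motor, and Timm22, the carrier translocase, had log2 fold changes of 0.12 and 0.10 (limma adjusted p = 0.16 and 0.21). The exception in sign was Timm17a, a channel partner of Timm23, at −0.02. Its paralog Timm17b was at 0.12, and both had overlapping groups. Timm44, Timm22, Timm17a and Timm17b were named after their values were seen.

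A second probe set existed for 11 of the 101 genes, and the brighter of each pair is given above. The sign was the same in both probe sets for all 11 genes. In 4 of them, Mrpl23, Mrpl27, Timm8a1 and Tomm20, every shRNA array lay above both controls in both probe sets. In Mrpl41, Mrpl47, Mrps33 and Mrps36 this held only for the brighter set, and in Mrpl51, Mrps5 and Timm17a for neither. In the probe set used, 21.0% of all genes tested had every shRNA array above both controls. No such share was computed for pairs of probe sets. RefSeq lists named pseudogenes for Mrpl23, Mrpl27, Mrpl48, Mrps36 and Timm29, which could share signal with the gene. A further 2 rows that pair Mrpl53 and Timm10b with another symbol were outside the rule.

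Genes that work beside the family were described from lists of known function. Of all genes tested, 2.86% were called higher and 3.52% lower in limma. With 2 calls in each of the next lists, nothing is read from these counts about the lists. Of 20 tested genes for assembly factors and for ribosome parts with other names, 2 rose and 18 missed the threshold, with a median log2 fold change of 0.068. Chchd1, a small subunit protein, rose by 0.32 (limma adjusted p = 0.023) and Fastkd2, an RNA-binding factor of large subunit assembly, by 0.28 (limma adjusted p = 0.033). Of 21 other import and processing genes, 2 rose and 19 missed the threshold, with a median of 0.059. Dnajc15, a co-chaperone of the import motor, rose by 0.35 (limma adjusted p = 0.021). Chchd4, the oxidoreductase that folds small TIM proteins after import, rose by 0.34 (limma adjusted p = 0.033).

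Genes for other steps of mitochondrial gene expression gave no calls in limma, where 2.86% of all genes tested were called higher and 3.52% lower. With lists this short, 0 calls is near those shares, so nothing is read from it. These genes' counts at an unadjusted p under 0.05 stand against 11.3% of all genes tested that were higher and 11.8% that were lower. Of 11 translation factors, 0 passed, with 1 higher and 1 lower at an unadjusted p under 0.05 and a median of 0.047. The largest difference was −0.14 for Mtrf1l, a release factor (limma adjusted p = 0.21). Of 16 mitochondrial tRNA synthetases, 0 passed, with 1 higher and 0 lower unadjusted and a median of 0.021. Hars2, the histidine enzyme, was highest at 0.15 (limma adjusted p = 0.18). Of 17 regulators of mitochondrial DNA expression and biogenesis, 0 passed, with 3 higher and 0 lower unadjusted and a median of 0.046. Ppargc1b, a coactivator of mitochondrial biogenesis, was at 0.24 (limma adjusted p = 0.056).

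Cytosolic ribosomal proteins, the counterparts outside mitochondria, had 7 of 62 genes higher, 0 lower and 55 that did not pass. This list was drawn by symbol, which does not make each gene a ribosomal protein gene. It also holds Rps19bp1 and Rpl7l1, at 0.14 and 0.08, neither of them past the threshold. For the 62 genes of the list, the further values are as follows. Their median was 0.11, and 30 were higher and 0 lower at an unadjusted p under 0.05 in limma, against the 11.3% and 11.8% of all genes tested. The largest rises past the threshold were those of Rps21 (0.34), Rpl13 (0.28) and Rps13 (0.27), with limma adjusted p of 0.019 to 0.029. Respiratory chain genes, whose products include partners of the proteins made on mitochondrial ribosomes, had 2 of 81 genes higher, 2 lower and 77 that did not pass, with a median of 0.041. The 2.47% called in each direction is near the share of all genes tested, 2.86% higher and 3.52% lower, so nothing is read from these counts about respiratory chain genes. Cox6a2 and Ndufb6, of complexes IV and I, rose by 0.33 and 0.28. Uqcr11 and Uqcrh, of complex III, fell by 0.26 and 0.25, and Uqcrh was added after its value was seen. The differences between these lists and the mitochondrial ribosome and import genes were not tested.

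**Figure D4:**
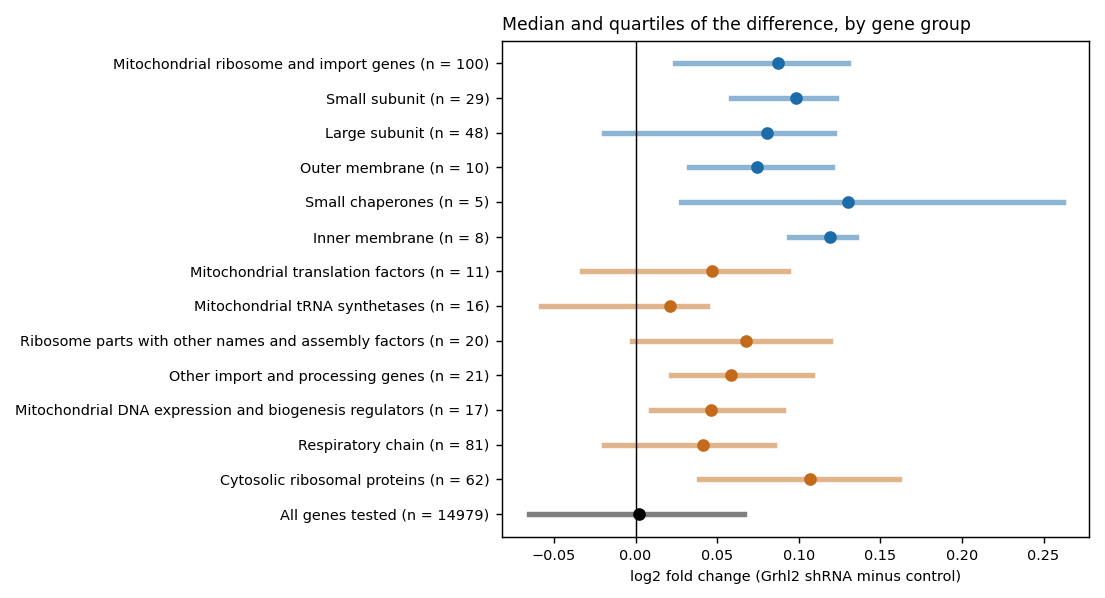
Median (point) and quartiles (bar) over genes of the log2 fold change (Grhl2 shRNA minus control) for the mitochondrial ribosome and import genes and their 5 role groups (blue), 7 related lists (orange) and all genes tested (black). Every median lies above that of all genes tested at 0.002, and they run from 0.021 for tRNA synthetases to 0.13 for the small chaperones.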

How the data were processed

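RNA of 5 separately transduced MLE-15 cultures (3 Grhl2 shRNA, 2 control) was measured on whole-transcript arrays from 300 ng of total RNA. The authors deposited log2 values, which the submitters' processing notes trace to RMA run in Affymetrix Expression Console. RMA normalizes quantiles, so a shift shared by all genes would be removed. For its version and build, the sources used here give nothing.

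Of 21640 probe sets with 1 gene symbol, the 16230 with a mean log2 value of at least 4.22 (25th percentile) were kept. The brightest stood for each of 14979 genes. The test was two-sided, by limma 3.58.1 (lmFit, eBayes; R 4.3.3), with Benjamini-Hochberg adjustment over all genes tested. Precision is limited by the 5 arrays, which leave 3 residual degrees of freedom. The fit was tested on simulated data.

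The genes and lists were chosen with earlier results of these arrays known. Named genes were Grhl2, up to 10 rises and 10 falls past the threshold, the 3 largest differences of each role group, all outer membrane and small chaperone genes, and from each related list the 3 largest called differences or, with none called, the largest. Cell type markers were 22 genes. Promoters were matched by Entrez ID, and a match at any listed start counted (5 genes had several). Plots used matplotlib 3.10.9 in Python 3.11.15.

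Alternatives changed the filter, normalization, probe set choice, variance prior, array weights, blocking by replicate number, threshold and gene universe, or left out each array.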

Additional observations from a re-analysis of the deposited data

How the results depend on the processing

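The median log2 fold change of the family stayed above 0 under every alternative that gave it, from 0.070 to 0.097. The number of its genes called depended on the setting. It was 3 with no filter, 19 higher and 2 lower with the filter at the 50th percentile, 20 higher and 3 lower with a trended robust prior, 18 higher and 2 lower at an adjusted p under 0.10 and 0 when all probe sets were tested together, where 24 were higher and 3 lower at an unadjusted p under 0.05 in limma. Calls over all genes were 418, 1708, 2034, 1851 and 0 in the same order. Of these, 241, 923, 1077, 996 and 0 were lower. The share of all genes called higher was 0.888%, 7.89%, 6.39%, 5.71% and 0%. For the 24 and 3, no share over all probe sets was computed. Leaving out an array gave 1 to 6 genes of the family and 67 to 493 genes in all. The log2 fold change of Grhl2, −0.24, passed the threshold with the filter at the 50th percentile (limma adjusted p = 0.032), with the trended robust prior (0.023), at the threshold of 0.10 (0.082) and without shRNA replicate 3 (−0.29, 0.047). Over the fits without an array it ran from −0.29 to −0.19.

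Only 2 replicate numbers are shared by both groups, and the numbers were not taken as pairs. The deviations of same-numbered arrays correlated across genes at 0.06 (replicate 1) and 0.02 (replicate 2). Those of shRNA array 3 and control array 2, with unlike numbers, correlated at 0.04. With 2 control arrays the control deviations are exact opposites, so these values cannot decide on pairing. With the replicate block, 2 genes of the family, Mrps6 and Timm10, and 172 genes in all were called. Of 404 values of single genes, 8 changed sign, all of them uncalled and near 0. Others kept the sign but lost the call, and fewer gained it. Under the replicate block Tomm40 was at 0.00197 and Timm13 at 0.0375, the same estimates as without shRNA replicate 3. This match is fixed by the design. Number 3 occurs only in the shRNA group, so under the block that array adds nothing to the difference between groups. With an array left out, Tomm40 ran from −0.0503 to 0.00197, Timm13 from −0.0829 to 0.0375, Tomm5 from −0.121 to 0.0474 and Tomm20l from −0.0784 to 0.117. The causes of the other changes were not tested.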
